A study of Mus musculus with 24 samples.

Results

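This comparison set 12 of the 24 libraries of the series against each other, the 6 libraries of clone KO2 and the 6 libraries of clone KO1 that were taken at 3, 6 and 9 h of actinomycin D. The question was which of the differences between the clones persisted, which appeared and which vanished once transcription was inhibited, so the 4 libraries of the same clones at 0 h were used as the state before the drug. Both clones carry the label Nat10+/- and derive from 32D cells, a mouse bone marrow line that depends on interleukin-3. All groups grew with 10 ng/ml IL-3 and 10% serum, and the treated ones received actinomycin D at 0.05 µg/ml. Each group, KO2 or KO1 at 0, 3, 6 or 9 h, held 2 libraries. The 6 drug libraries of WT 32D cells, also 2 at each time, are given as levels only. KO2 and KO1 are called clones here, although the labels do not say how the lines were made, so a difference between them is one between 2 lines with the same stated genotype. The labels call the libraries of a group biological replicates and do not say whether separate cultures were meant, so a p-value compares a difference with the scatter of these libraries, which could be technical alone.

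Actinomycin D binds DNA and stops RNA polymerases, with polymerase I the most sensitive. Once new transcripts are no longer made, an mRNA level depends on how fast that mRNA is degraded, and a difference between clones that is kept in long-lived mRNAs can fade or grow in others. Whether mRNA synthesis stopped at the dose used was not tested, so levels in the drug cannot be read as degradation alone. Type I interferon signalling runs from the interferon receptor through JAK kinases to transcription factors, which switch on antiviral effector genes and also their own brakes. The libraries give mRNA levels only, so activity of this pathway was not measured.

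The libraries held between 15361601 and 17257226 gene counts. Levels are CPM (gene counts scaled to a common library size, here with TMM factors), which express each mRNA relative to the average transcript in the same library, so a level that is higher in the drug shows only that the mRNA lasted or gained more than the average. The targeted gene, Nat10, an RNA cytidine acetyltransferase, had 82.6 and 83.3 CPM at 3 h, 54.2 and 60.01 at 6 h and 47.1 and 47.4 at 9 h in KO2, against 83.6 and 85.04 CPM at 3 h, 66.3 and 59.8 at 6 h and 47.4 and 50.1 at 9 h in KO1. The WT drug libraries had 62.4 to 89.1 CPM. The clones overlapped and Nat10 was not called in the drug (-0.07 ± 0.036 as the log2 difference ± SE, as throughout, adjusted p = 0.192). This SE is the log2 difference divided by the square root of the F statistic of the edgeR test. For mRNAs nearly absent in 1 clone, such as Rtp4, Apol9b, Ifi203, Mndal and Zbp1, it understates the counting error and gives no interval for the fold. ERCC spike-ins gave 506 to 844 CPM of gene counts in the KO2 drug libraries, against 258 to 353 in the KO1 drug libraries. With spike-in totals as the scale, the median log2 difference over all genes was -1.26, against -0.001 with TMM, and the share of called genes that were higher in KO2 was 0.313%, against 44.9% with TMM. Every direction below is therefore relative to the average transcript. A change of scale shifts all genes by nearly the same amount. The distance of a list median from the median of all genes, given below for spike-in totals, is therefore nearly fixed and is no check of a result. On the spike-in scale 18 of the 51 interferon effectors below, 2 of 28 interferon signalling genes, 1 of 21 MHC class I genes and 2 of 18 globin and erythroid-megakaryocyte genes were called higher in KO2. Called lower there were 22, 25, 16 and 13 members of these lists, in the same order. Every other list below had 0 called higher. The label names the cells lymphoblastocytes. Of 20 lymphoid marker genes, 7 were at 0 counts in all 16 clone libraries (Cd4, Cd8a, Dntt, Il7r, Ms4a1, Ncr1 and Rag2), and all 20 together summed to 33.2 to 50.01 CPM in the KO2 drug libraries, against 34.1 to 45.7 CPM in the KO1 drug libraries. The 16 myeloid progenitor markers summed to 618 to 799 CPM in KO2, against 689 to 869 CPM in KO1, with Kit at 0. Genes that overlap another gene lose reads in counting without strand, and Jun, Btg1 and Klf4 were also at 0 in all 16 libraries, so a count of 0 need not mean that a gene was silent.

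Over 3 to 9 h of actinomycin D, 3006 of 15656 genes (19.2%) were called between the clones, 1349 higher in KO2 (8.62%) and 1657 lower (10.6%). Most of these differences were small. Only 190 genes (1.21%) were called with at least a 2-fold difference, 137 higher (0.875%) and 53 lower (0.339%) in KO2. At 0 h, where 4 libraries carry the comparison, 1978 genes (12.6%) were called, 908 higher (5.8%) and 1070 lower (6.83%) in KO2.

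A difference called in both phases with the same sign was found for 1038 genes, 471 higher and 567 lower in KO2. They made up 52.5% of the calls at 0 h and 34.5% of the calls in the drug. Of the 267 genes (1.71%) called with at least a 2-fold difference at 0 h, 180 were in this persisting class, and of the 190 such genes in the drug, 108 were called at 0 h with the same sign. The change of the clone difference between the phases, tested in its own right, was called for 682 genes (4.36%). Of the persisting genes, 181 had such a change, with a smaller difference in the drug for 177 and a larger one for 4. The class asks for a call at 0 h. A larger drug difference without that call is counted as appeared if its change was called, and otherwise as called in the drug only. This split is therefore partly set by the rule and does not measure a general narrowing.

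The other classes were smaller. For 134 genes a difference appeared: it was called in the drug, was not called at 0 h, and its change was called (63 higher and 71 lower in KO2). For 315 genes a difference vanished (153 had been higher and 162 lower in KO2 at 0 h), and for 37 genes the called difference had opposite signs in the 2 phases (13 higher and 24 lower in KO2 in the drug). Vanished means called at 0 h and not called over the drug times together, with the change called. A gene in this class can still differ at single times, where opposite signs cancel. Lars2 is one, with called differences of -1.57 at 3 h, 0.20 at 6 h and 0.66 at 9 h. A further 1797 genes were called in the drug only and 588 at 0 h only, without a called change, so these are not shown to differ between the phases. When each time was tested alone, 12.3% of genes were called at 3 h (5.66% higher and 6.66% lower in KO2), 13.6% at 6 h (5.68% and 7.89%) and 12.6% at 9 h (5.01% and 7.58%).

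**Figure D1:**
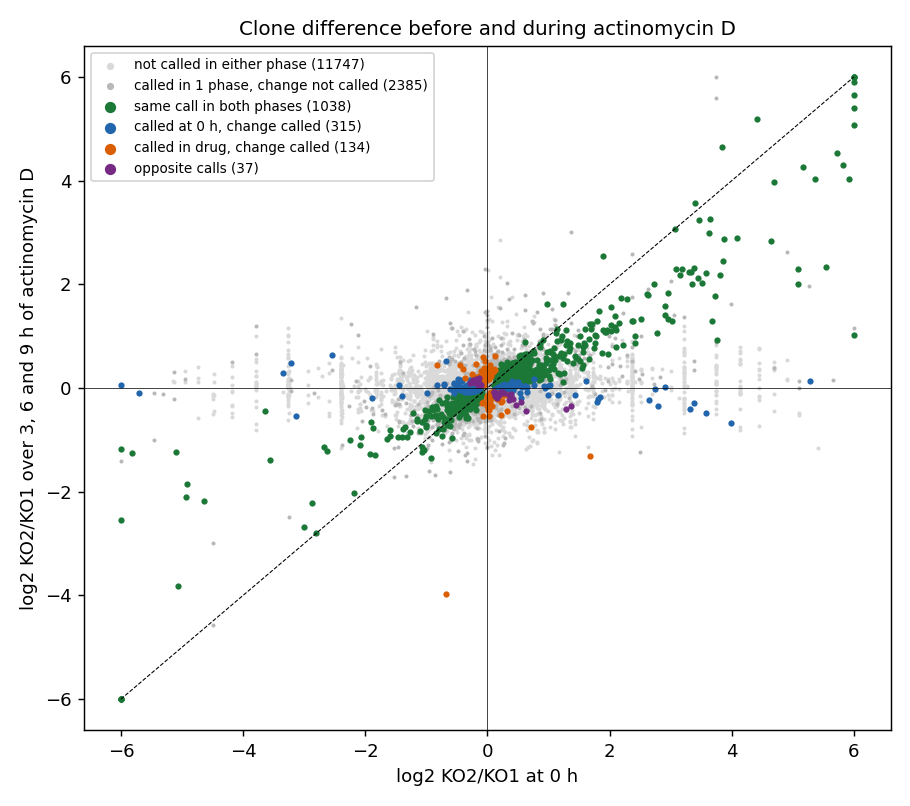
Each point is 1 of 15656 genes, with the log2 difference KO2/KO1 at 0 h on the x axis and over 3, 6 and 9 h of actinomycin D on the y axis, and values beyond 6 drawn at 6. Most of the 1038 genes with the same call in both phases (green) lie between the dashed line of equal differences and the horizontal axis, and the 315 whose difference vanished (blue) lie along the horizontal axis.

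Interferon-induced effector mRNAs were among the largest persisting differences, and 48 of the 51 tested were called higher in KO2 at 9 h, against 5.01% of all genes. Over the drug times, 49 were higher in KO2 in the drug and 0 were lower, against 8.62% of all genes higher. The median difference was 1.12 on the log2 scale in the drug and 2.11 at 0 h, against -0.001 and -0.008 over all genes. The change between the phases was called toward KO1 for 37 of the 51 and toward KO2 for 0, against 2.5% and 1.86% of all genes. The persisting class held 48 of the 51, against 6.63% of all genes. With spike-in totals as the scale the median of the list turned to -0.13 in the drug. It lay 1.13 above the median of all genes on that scale, against 1.12 with TMM, a distance that a change of scale leaves nearly fixed.

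Rtp4 (chr16:23339041-23432972 on GRCm39), an interferon-induced receptor chaperone, had 17.98 and 18.2 CPM at 3 h, 30.4 and 30.1 at 6 h and 52.8 and 49.3 at 9 h in KO2, against 0 and 0.186 CPM at 3 h, 0.06 and 0.06 at 6 h and 0.116 and 0 at 9 h in KO1. All 6 KO2 libraries stood above all 6 KO1 libraries, and the fitted difference was 8.76 ± 0.17 on the log2 scale (adjusted p = 1.66e-33). At 0 h it held 2062 counts in KO2 and 0 in KO1, so it was at least 666-fold higher there, against a floor of 3 counts over the group. Apol9b, an interferon-induced member of the apolipoprotein L family in the mouse, had 38.5 and 42.6 CPM at 3 h, 73.6 and 83.1 at 6 h and 133 and 131 at 9 h in KO2, against 0 and 0.062 CPM at 3 h, 0.36 and 0.18 at 6 h and 1.63 and 0.452 at 9 h in KO1. The groups were far apart at each time (7.51 ± 0.12, adjusted p = 1.05e-35). Near-identical Apol9a may share its reads. Ifi203 and Mndal both lie on chromosome 1 and belong to the family of interferon-inducible nucleic acid sensors with a HIN domain. Ifi203 ranged from 23.6 to 53.001 CPM (median 29.8) in the 6 KO2 libraries, against 0.18 to 0.407 CPM (median 0.268) in the 6 KO1 libraries. It differed by 6.97 ± 0.12, adjusted p = 2.35e-34. Mndal ranged from 1.92 to 6.09 CPM (median 2.70) in the 6 KO2 libraries, against 0 to 0.065 CPM (median 0.059) in the 6 KO1 libraries. The fitted log2 difference was 5.91 ± 0.33, adjusted p = 1.12e-17. At 0 h Mndal had 267 counts in KO2 and 0 in KO1, at least 86.3-fold higher in KO2. Zbp1, a sensor of Z-form nucleic acid, ranged from 4.86 to 13.3 CPM (median 6.40) in the 6 KO2 libraries, against 0 to 0.565 CPM (median 0.177) in the 6 KO1 libraries. The log2 difference was 5.07 ± 0.21, adjusted p = 3.3e-22.

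The promoters of Apol9b, Ifi203 and Mndal are shown because they hold the letters of an interferon-stimulated response element. The 250 bases before the start of each gene are from RefSeq on GRCm38.p6, a build other than that of the counts, read in the direction of transcription, with matches to the letters GAAA, any 2 bases, GAAA on either strand in capitals.
Apol9b (chr15:77728822-77729071, plus strand): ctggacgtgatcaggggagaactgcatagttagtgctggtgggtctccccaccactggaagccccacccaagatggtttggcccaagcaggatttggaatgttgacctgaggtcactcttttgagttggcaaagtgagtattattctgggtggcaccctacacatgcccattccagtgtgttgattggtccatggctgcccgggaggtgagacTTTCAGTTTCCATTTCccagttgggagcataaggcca
Ifi203 (chr1:173942493-173942742, minus strand): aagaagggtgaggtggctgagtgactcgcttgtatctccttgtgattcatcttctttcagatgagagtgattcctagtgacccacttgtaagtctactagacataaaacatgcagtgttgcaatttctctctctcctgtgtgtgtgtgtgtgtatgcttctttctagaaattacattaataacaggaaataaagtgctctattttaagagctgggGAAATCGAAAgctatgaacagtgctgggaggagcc
Mndal (chr1:173879959-173880208, minus strand): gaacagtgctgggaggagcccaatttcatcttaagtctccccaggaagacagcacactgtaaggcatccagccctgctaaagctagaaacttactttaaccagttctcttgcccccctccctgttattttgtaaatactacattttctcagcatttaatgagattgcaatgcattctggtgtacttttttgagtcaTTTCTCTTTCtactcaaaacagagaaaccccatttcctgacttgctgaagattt
Apol9b has 2 overlapping matches, and the other two have 1 each. The letters occurred in 19 of the 39 interferon effectors that had a promoter entry (48.7%), against 936 of 27025 genes (3.46%). In the drug, the 19 effectors with a match had a median difference of 1.26 on the log2 scale and the 20 with no match one of 0.74, a description with no test. Of the 19 with a match 18 were called in the drug, and of the 20 with none 19. A match is not shown to be a bound site, and no match says only that these letters are not in this window.

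Mx1, an antiviral GTPase, differed in size between the phases while it stayed far higher in KO2. It had 45.4 and 47.7 CPM in KO2 at 0 h, against 0.397 and 0.188 in KO1. Over the drug hours it had 107 and 115 CPM at 3 h, 102 and 101.5 at 6 h and 83.1 and 93.1 at 9 h in KO2, against 1.23 and 2.10 CPM at 3 h, 2.10 and 1.92 at 6 h and 2.97 and 3.62 at 9 h in KO1. No KO1 library came near a KO2 library, but KO1 levels were higher in the drug than at 0 h, and the difference of 5.40 ± 0.088 (adjusted p = 1.75e-35) was smaller than the 7.29 ± 0.25 at 0 h (change -1.89 ± 0.52, adjusted p = 0.0235). The difference also drifted toward KO1 between 3 and 9 h, by -1.31 ± 0.25 (adjusted p = 9.22e-05). Mx2, its near relative, ranged from 15.4 to 25.7 CPM (median 20.7) in the 6 KO2 libraries, against 0.48 to 1.92 CPM (median 0.683) in the 6 KO1 libraries. Its difference of 4.54 ± 0.13 was likewise smaller than at 0 h (change -1.19 ± 0.32, adjusted p = 0.0201). Ifi27l2a ranged from 61.9 to 79.9 CPM (median 75.4) in the 6 KO2 libraries, against 1.14 to 2.71 CPM (median 1.83) in the 6 KO1 libraries. The clones were separate (5.19 ± 0.088, adjusted p = 4.1e-35), with a change of 0.77 ± 0.28 that was not called (adjusted p = 0.127).

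Levels in both clones differed between the phases. In KO2 the mean level was at least 2-fold higher in the drug than at 0 h for 4 of the 51 effectors and at least 2-fold lower for 12, against 18.2% and 16.5% of all genes in KO2. In KO1 it was at least 2-fold higher for 9, near the 18% of all genes in KO1, and at least 2-fold lower for 0, against 16.3%. At 3, 6 and 9 h the median difference of the list was 1.24, 1.11 and 1.02 on the log2 scale. The drift between 3 and 9 h was called toward KO1 for 15 of the 51 and toward KO2 for 2, against 1.88% and 1.07% of all genes. All 6 KO2 libraries stood above all 6 KO1 libraries for 36 of the 51, against 1.06% of all genes. The share of all genes called higher was 8.62%. The 2 members not called in the drug were Phf11d and Rsad2, and Rsad2 averaged 0.14 CPM in KO2 and 0.041 CPM in KO1.

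Among the genes that carry or brake the interferon signal, 8 of 28 were higher in KO2 in the drug and 2 lower, against 8.62% and 10.6% of all genes, with a median of 0.028. Usp18, which removes ISG15 and blocks the receptor, had 73.8 and 71.3 CPM at 3 h, 103 and 108 at 6 h and 156 and 157 at 9 h in KO2, against 13.3 and 12.998 CPM at 3 h, 23.7 and 20.1 at 6 h and 39.1 and 41.2 at 9 h in KO1. The libraries of the clones were separate at each time (2.18 ± 0.049, adjusted p = 5.18e-31), and the difference was smaller than the 3.82 ± 0.083 at 0 h (change -1.64 ± 0.10, adjusted p = 1.31e-16). Irf7, the transcription factor that amplifies the response, had 122 and 125.1 CPM at 3 h, 167 and 176 at 6 h and 212 and 219.7 at 9 h in KO2, against 19.2 and 20.1 CPM at 3 h, 45.97 and 47.2 at 6 h and 63.6 and 64.9 at 9 h in KO1. It was higher in every KO2 library, and the difference became smaller over the hours (2.01 ± 0.064 over the drug times, drift -0.91 ± 0.079, adjusted p = 5.14e-18). Tmem173, the adaptor STING, was not called at 0 h (0.33 ± 0.15, adjusted p = 0.185) and lower in KO2 in the drug (-0.44 ± 0.074, adjusted p = 1.82e-05). It had 4.58 and 5.06 CPM at 3 h, 8.98 and 8.90 at 6 h and 21.8 and 19.5 at 9 h in KO2, against 5.76 and 5.63 CPM at 3 h, 13.6 and 14.5 at 6 h and 27.7 and 25.998 at 9 h in KO1. Jak1, the kinase at the receptor, had a small difference in the drug (-0.077 ± 0.027, adjusted p = 0.0372). It ranged from 65.2 to 257 CPM (median 122) in the 6 KO2 libraries, against 69.3 to 258 CPM (median 133) in the 6 KO1 libraries, with overlap.

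Genes of antigen presentation by MHC class I, which respond to interferon, were mostly higher in KO2 as well. Of 21 genes, 17 were higher in KO2 in the drug and 3 lower, against 8.62% and 10.6% of all genes, and the median was 0.32, against 0.66 at 0 h. The change was called for 11, all toward KO1, against 2.5% of all genes. H2-K1, a class I heavy chain, had 454 and 445 CPM at 3 h, 516 and 535 at 6 h and 598 and 618 at 9 h in KO2, against 167 and 174 CPM at 3 h, 223 and 224 at 6 h and 259 and 251 at 9 h in KO1. KO2 was above KO1 in every pair (1.29 ± 0.023, adjusted p = 2.35e-34), and levels were higher at each later time in both clones. H2-T24, a nonclassical class I gene, had 127 and 131 CPM in KO2 at 0 h, against 10.8 and 11.7 in KO1. It ranged from 15.7 to 44.7 CPM (median 17.9) in the 6 KO2 libraries, against 3.89 to 9.64 CPM (median 5.27) in the 6 KO1 libraries in the drug. Its difference was 2.03 ± 0.088 in the drug and 3.52 ± 0.11 at 0 h (change -1.47 ± 0.14, adjusted p = 1.17e-10). The H2 genes are near-identical in parts, so reads may be shared among them. Tap1, which pumps peptides into the endoplasmic reticulum and is also listed among p53 targets, differed by 0.20 ± 0.021 in the drug (adjusted p = 2.65e-09) and by 0.83 ± 0.038 at 0 h. The 3 lower members were the chaperones Calr (-0.089 ± 0.017, adjusted p = 0.000131), Pdia3 (-0.088 ± 0.020, adjusted p = 0.000964) and Canx (-0.079, adjusted p = 0.00346), which serve folding in general. Canx was added after its values were seen, to complete the 3, and with replicate pairs summed 0 members were lower.

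**Figure D2:**
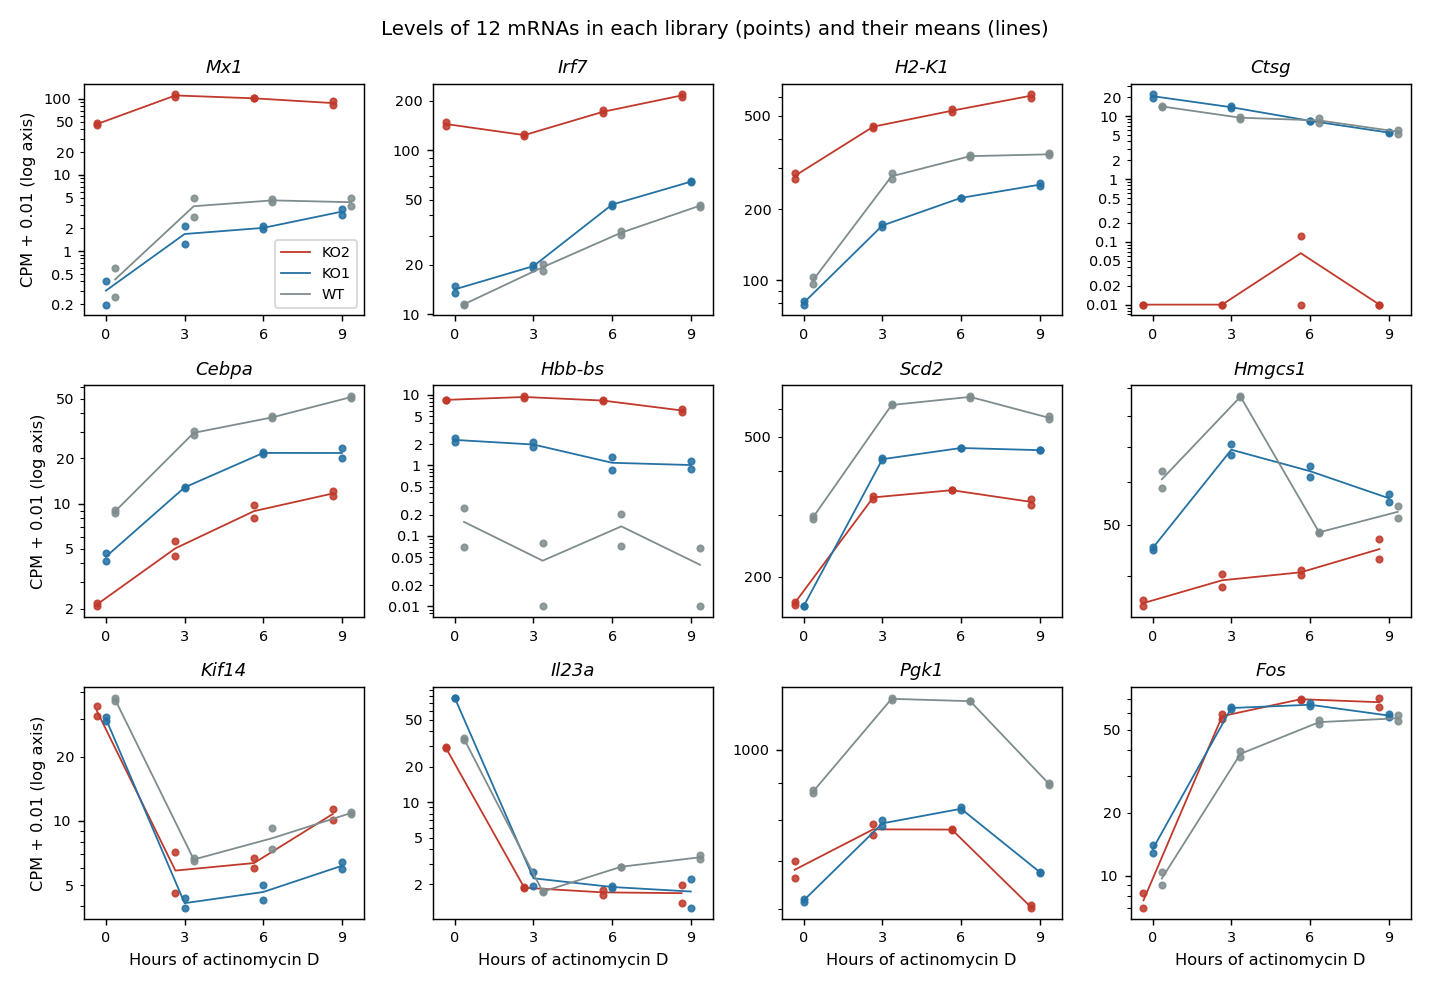
Each panel shows 1 mRNA as CPM plus 0.01 on a log axis against hours of actinomycin D, with points for the libraries and lines through the means of the 2 libraries, drawn slightly apart for KO2 (red), KO1 (blue) and WT (grey). Mx1, Irf7 and H2-K1 lie higher in KO2 at all times, Ctsg and Cebpa lie lower, Scd2 separates only in the drug, and the clones lie close in Il23a from 3 h on.

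Persisting differences in the other direction included mRNAs of the neutrophil and macrophage programmes. Of 20 tested genes of neutrophil granules, the oxidase and their regulators, 13 were lower in KO2 in the drug and 2 higher, against 10.6% and 8.62% of all genes, with a median of -0.21. At 0 h 8 were lower and 0 higher, against 6.83% and 5.8% of all genes. With spike-in totals the median in the drug lay 0.21 below that of all genes. Of 7 macrophage and monocyte markers, 5 were lower and 0 higher in the drug, while C1qa, C1qb, Ly6c2 and Marco were at 0 counts in all 16 libraries. Of 13 myeloid progenitor markers, 8 were lower and 2 higher in the drug. The shares of all genes in the drug given above hold for both lists. The lists share members, among them Ctsg and Mpo (neutrophil and progenitor) and Itgam (macrophage and progenitor), so these counts are not separate observations. The 16 macrophage and monocyte markers that matched a name summed to 186 to 334 CPM in the KO2 drug libraries, against 222 to 395 CPM in the KO1 ones. In bulk RNA, fewer cells of a type and less RNA per cell cannot be told apart.

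Ctsg (chr14:56337338-56340031), cathepsin G of azurophil granules, was nearly absent in KO2. It had 0 and 0 CPM at 3 h, 0.112 and 0 at 6 h and 0 and 0 at 9 h in KO2, against 13.5 and 14.4 CPM at 3 h, 8.46 and 8.50 at 6 h and 5.53 and 5.48 at 9 h in KO1. In all 6 drug libraries it held 2 counts in KO2 and 917 in KO1, a 473-fold ratio with an exact 95% counting interval of 131 to 3910. At 0 h it held 0 counts in KO2 and 654 in KO1, at least 225-fold lower in KO2. The WT drug libraries had 5.30 to 9.89 CPM, a range near that of KO1. Lyz2, lysozyme of myeloid cells, ranged from 0.684 to 2.41 CPM (median 1.06) in the 6 KO2 libraries, against 3.75 to 6.05 CPM (median 5.18) in the 6 KO1 libraries. It differed by -2.03 ± 0.16 (adjusted p = 6.77e-13). WT libraries had 23.1 to 41.7 CPM. Lcn2, which codes for lipocalin-2 and was chosen after its values were seen because it is the most abundant called member, averaged 1453 CPM in KO2 and 2747 CPM in KO1 in the drug (-0.92, adjusted p = 1.66e-33).

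Cebpa, the transcription factor that opens the granulocyte programme, had 4.44 and 5.62 CPM at 3 h, 9.76 and 8.06 at 6 h and 11.2 and 12.1 at 9 h in KO2, against 12.9 and 12.7 CPM at 3 h, 21.3 and 22.2 at 6 h and 23.5 and 20.01 at 9 h in KO1. Each KO2 library was below each KO1 library (-1.14 ± 0.081, adjusted p = 2e-14), as at 0 h (-1.06 ± 0.23, adjusted p = 0.000823), and levels were higher at 9 h than at 3 h in both clones. Gfi1, a repressor needed for neutrophils, had 9.16 and 9.69 CPM at 3 h, 16.6 and 15.8 at 6 h and 33.9 and 33.3 at 9 h in KO2, against 14.95 and 13.6 CPM at 3 h, 26.1 and 24.6 at 6 h and 49.1 and 50.2 at 9 h in KO1. It was lower in KO2 at each time (-0.60 ± 0.054, adjusted p = 2.43e-11). Its relative Gfi1b, which acts in erythroid and megakaryocyte cells, was higher in KO2 (0.49 ± 0.070, adjusted p = 1.15e-06). It ranged from 17.4 to 31.04 CPM (median 19.8) in the 6 KO2 libraries, against 10.7 to 26.6 CPM (median 13.7) in the 6 KO1 libraries. Csf3r, the receptor for granulocyte colony-stimulating factor, reached at most 1.20 CPM in the 12 libraries, and its call (-1.25 ± 0.44, adjusted p = 0.0396) rests on few counts. Mpo and Ltf, granule proteins with low counts, were the 2 members higher in KO2 in the drug (Mpo 0.51 ± 0.18, adjusted p = 0.0472). For Ltf the difference was 0.62 ± 0.18 (adjusted p = 0.00953).

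Adgre1, the macrophage antigen F4/80, ranged from 4.82 to 10.1 CPM (median 6.21) in the 6 KO2 libraries, against 13.2 to 22.9 CPM (median 15.3) in the 6 KO1 libraries. It differed by -1.35 ± 0.079, adjusted p = 5.59e-17. Itgam, the integrin CD11b, was lower in KO2 in the drug (-0.39 ± 0.075, adjusted p = 0.000134) and not called at 0 h (-0.27 ± 0.12, adjusted p = 0.157). Fcgr2b, the inhibitory receptor for IgG, had 0 and 0.062 CPM at 3 h, 0.948 and 1.95 at 6 h and 4.72 and 5.42 at 9 h in KO2, against 3.43 and 2.29 CPM at 3 h, 7.92 and 8.38 at 6 h and 18.05 and 15.5 at 9 h in KO1. It had 1 count in both KO2 libraries together at 3 h, so the fitted drift rests on very few counts. KO2 was closer to KO1 at 9 h, and the clone difference drifted by 4.43 ± 0.82 on the log2 scale, toward KO2 (adjusted p = 6.27e-05).

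Other lower mRNAs in the persisting class lay outside these lists. Mid1ip1 (chrX:10581252-10585929), a regulator of fatty acid synthesis, had 1 count in the 6 KO2 drug libraries and 1536 in the 6 KO1 ones, a ratio of 1590 with an exact 95% counting interval of 284 to 62700. It ranged from 0 to 0.055 CPM (median 0) in the 6 KO2 libraries, against 13.5 to 17.6 CPM (median 14.9) in the 6 KO1 libraries. Both counts at 0 h were 0 in KO2 too, against 297 counts in KO1, and WT drug libraries had 18.9 to 28.7 CPM. Vnn3, a pantetheinase, ranged from 0.25 to 0.768 CPM (median 0.579) in the 6 KO2 libraries, against 3.04 to 4.07 CPM (median 3.84) in the 6 KO1 libraries. The fitted log2 difference was -2.80 ± 0.20, adjusted p = 3.18e-14. Csn1s1, a casein gene, ranged from 2.13 to 3.18 CPM (median 2.70) in the 6 KO2 libraries, against 5.10 to 7.07 CPM (median 6.49) in the 6 KO1 libraries. The log2 difference was -1.23 ± 0.12, adjusted p = 5.89e-10. Cdsn, which codes for corneodesmosin, had lower levels in KO2 at 3 and 6 h, and 0 to 0.057 CPM in both clones at 9 h (-2.69 ± 0.51, adjusted p = 0.000117). Rnf128, an E3 ubiquitin ligase, had 2.67 and 1.69 CPM at 3 h, 0.446 and 0.445 at 6 h and 0.658 and 1.09 at 9 h in KO2, against 5.11 and 6.07 CPM at 3 h, 2.10 and 1.68 at 6 h and 1.16 and 1.30 at 9 h in KO1. The fitted difference was -1.29 ± 0.21, adjusted p = 9.11e-06.

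Of 18 tested globin and erythroid-megakaryocyte genes, 14 were higher in KO2 in the drug and 1 lower, against 8.62% and 10.6% of all genes, with a median of 0.38. At 0 h 12 were higher and 0 lower, against 5.8% and 6.83% of all genes, with a median of 0.40. Tested alone, 12 were higher at 3 h, 9 at 6 h and 7 at 9 h, against 5.66%, 5.68% and 5.01% of all genes. Without the 3 h libraries 9 were higher in the drug. With spike-in totals the median lay 0.37 above that of all genes. Hbb-bs, the major adult beta globin gene, had 9.64 and 8.999 CPM at 3 h, 8.08 and 8.51 at 6 h and 6.25 and 5.75 at 9 h in KO2, against 2.14 and 1.79 CPM at 3 h, 0.84 and 1.32 at 6 h and 0.873 and 1.13 at 9 h in KO1. No KO1 library reached a KO2 library (2.55 ± 0.14, adjusted p = 3.32e-18), and the WT drug libraries had 0 to 0.192 CPM. The embryonic globin Hbb-y was higher in KO2 as well, at low levels, and ranged from 0.493 to 1.502 CPM (median 1.005) in the 6 KO2 libraries, against 0.057 to 0.291 CPM (median 0.213) in the 6 KO1 libraries. It differed by 2.29 ± 0.38, adjusted p = 1.18e-05. Globin genes of a cluster are near-identical in parts and may share reads. The one lower member was Tfrc, the transferrin receptor, which was -0.10 ± 0.019 in the drug and 0.27 ± 0.035 at 0 h, both called (adjusted p = 0.0001 and 8.35e-08). Mecom, a transcription factor of blood progenitors, was higher in KO2 in both phases (0.19 ± 0.018 in the drug, adjusted p = 3.54e-11). It ranged from 1684 to 2414 CPM (median 2076) in the 6 KO2 libraries, against 1485 to 2139 CPM (median 1762) in the 6 KO1 libraries.

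**Figure D3:**
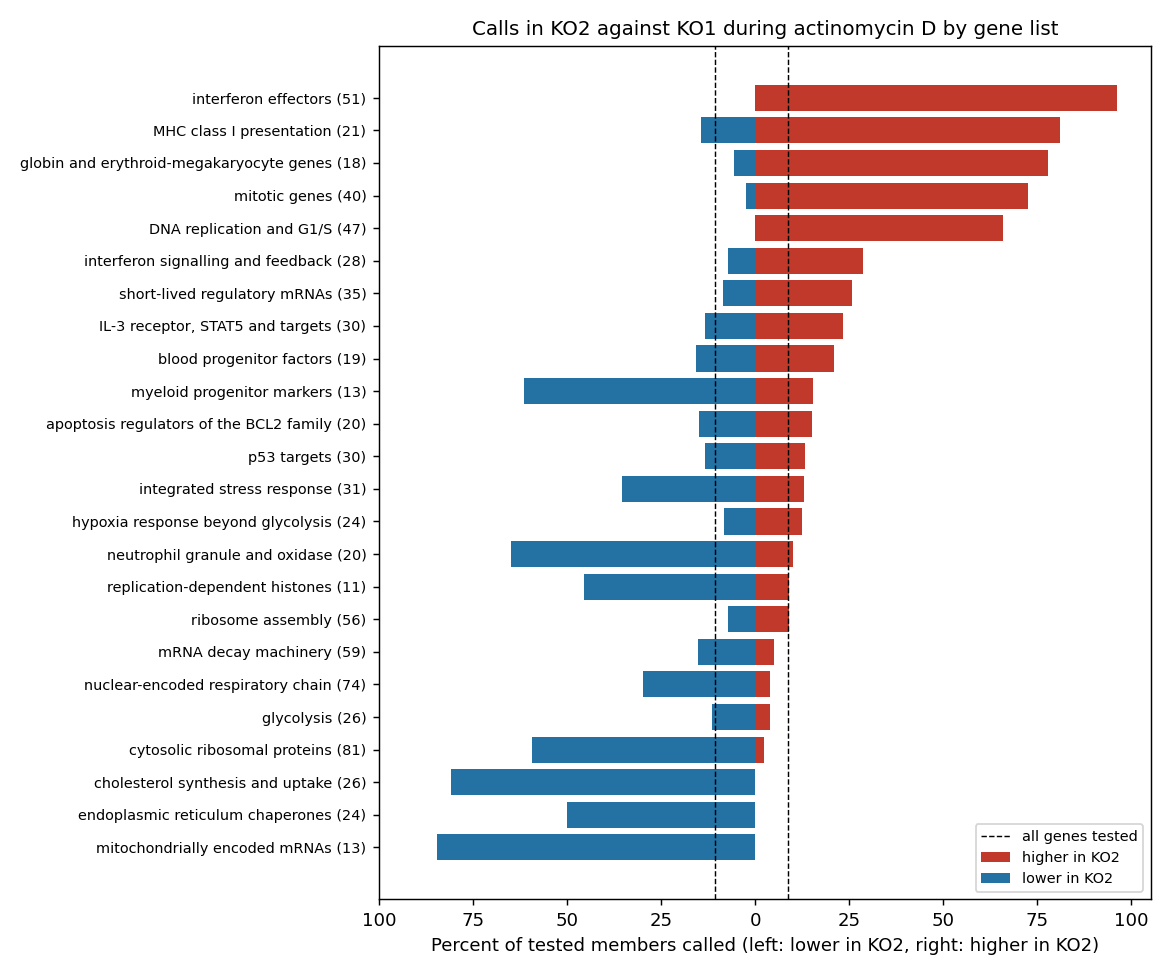
Bars give the percent of tested members of each list with at least 10 tested genes (number in brackets) that were called higher (red, right) or lower (blue, left) in KO2 than in KO1 over 3 to 9 h of actinomycin D. The dashed lines mark all 15656 genes, 8.62% higher and 10.6% lower.

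Differences that appeared in the drug included mRNAs of cell division. Of 40 mitotic genes, 29 were higher in KO2 in the drug and 1 lower (Bub3, -0.084 ± 0.025), against 8.62% and 10.6% of all genes. At 0 h 9 were higher and 1 lower, against 5.8% and 6.83% of all genes. Without the 9 h libraries 16 were higher in the drug. The median was 0.08 at 3 h, 0.17 at 6 h and 0.27 at 9 h on the log2 scale, against 0.08 at 0 h. The drift between 3 and 9 h was called toward KO2 for 9 and toward KO1 for 0, against 1.07% and 1.88% of all genes. Of 47 genes of DNA replication and the G1/S step, 31 were higher and 0 lower in the drug, and 12 and 0 at 0 h. The same shares of all genes hold for them. The change itself was called for 4 mitotic and 2 replication genes, all toward KO2, against 1.86% of all genes. For most members a larger difference in the drug is therefore not shown. With spike-in totals all 40 and all 47 were lower in KO2, with medians 0.16 and 0.18 above that of all genes.

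Spc24 and Kif14 are not in these lists and were named for the size of their differences. Spc24, a subunit of the NDC80 complex at kinetochores, had 30.9 and 33.1 CPM at 3 h, 30.8 and 31.4 at 6 h and 28.8 and 30.3 at 9 h in KO2, against 23.4 and 23.8 CPM at 3 h, 21.3 and 22.03 at 6 h and 20.8 and 23.2 at 9 h in KO1. KO2 was above KO1 in every library (0.46 ± 0.051, adjusted p = 4.82e-09), and no call was made at 0 h. There it had 38.9 and 40.5 CPM in KO2, against 43.3 and 47.5 CPM in KO1 (change 0.66 ± 0.093, adjusted p = 1.66e-06). Ndc80, of the same complex, had 16.6 and 16.8 CPM at 3 h, 35.1 and 31.8 at 6 h and 40.9 and 38.4 at 9 h in KO2, against 14.4 and 13.9 CPM at 3 h, 27.1 and 29.5 at 6 h and 25.7 and 26.9 at 9 h in KO1. The difference was 0.38 ± 0.059 (adjusted p = 6.17e-06, and change 0.33 ± 0.091, adjusted p = 0.0252). Ttk, the spindle checkpoint kinase, had 12.9 and 12.4 CPM at 3 h, 20.6 and 18.7 at 6 h and 22.9 and 22.3 at 9 h in KO2, against 10.03 and 9.84 CPM at 3 h, 13.8 and 15.1 at 6 h and 16.1 and 15.9 at 9 h in KO1. Its pairs were separate at each time (0.44 ± 0.064, adjusted p = 1.41e-06), with 0.043 ± 0.092 at 0 h. Kif14, a kinesin of cytokinesis, had 4.58 and 7.12 CPM at 3 h, 6.69 and 6.01 at 6 h and 11.4 and 10.1 at 9 h in KO2, against 4.34 and 3.90 CPM at 3 h, 4.26 and 5.03 at 6 h and 5.94 and 6.39 at 9 h in KO1. The difference was 0.61 ± 0.11 in the drug (adjusted p = 3.46e-05), and its change was near the threshold (adjusted p = 0.0493).

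In the replication list, Ccne1, cyclin E1, was higher in both phases. It had 39.8 and 40.2 CPM at 3 h, 29.9 and 27.4 at 6 h and 15.5 and 14.9 at 9 h in KO2, against 30.3 and 31.2 CPM at 3 h, 20.5 and 19.04 at 6 h and 10.6 and 12.8 at 9 h in KO1. The difference was 0.43 ± 0.057 (adjusted p = 1.99e-07) and 0.39 ± 0.095 at 0 h. Prim1, the catalytic primase subunit, had 35.1 and 31.9 CPM at 3 h, 83.7 and 73.02 at 6 h and 97.3 and 91.03 at 9 h in KO2, against 27.9 and 30.5 CPM at 3 h, 60.4 and 57.7 at 6 h and 69.7 and 71.9 at 9 h in KO1. It was higher in KO2 at each time (0.36 ± 0.041, adjusted p = 8.84e-09), with levels that were higher at 9 h than at 3 h in both clones.

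Mtss1 and Col2a1 also appeared as higher in KO2. Mtss1, a membrane and actin binding protein, had 8.07 and 8.31 CPM at 3 h, 3.40 and 3.39 at 6 h and 1.70 and 2.19 at 9 h in KO2, against 6.34 and 6.13 CPM at 3 h, 2.10 and 1.98 at 6 h and 1.22 and 1.53 at 9 h in KO1. The fitted difference was 0.52 ± 0.13, adjusted p = 0.0027. Col2a1, the chain of type II collagen, had 2.67 and 3.44 CPM at 3 h, 8.47 and 8.01 at 6 h and 16.3 and 16.4 at 9 h in KO2, against 2.78 and 3.10 CPM at 3 h, 6.30 and 5.39 at 6 h and 10.8 and 11.2 at 9 h in KO1. Levels at 0 h were low, 0.811 and 0.56 CPM in KO2 and 1.39 and 1.06 CPM in KO1. The difference in the drug was 0.45 ± 0.093 (adjusted p = 0.00032).

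Sterol and lipid synthesis held more lower mRNAs in the drug than at 0 h. Of 26 genes, 21 were lower in KO2 in the drug and 0 higher, against 10.6% and 8.62% of all genes. At 0 h 4 were lower and 2 higher, against 6.83% and 5.8% of all genes. The median was -0.23 in the drug and -0.044 at 0 h. The change was called for 8, all toward KO1, against 2.5% of all genes. Of the list, 6 were in the class that appeared and 1 reversed, against 0.856% and 0.236% of all genes. With spike-in totals the median lay 0.23 below that of all genes. In this pathway, SREBP transcription factors raise the enzymes of sterol and fatty acid synthesis when sterols are scarce.

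Scd2 (chr19:44282113-44295303), a stearoyl-CoA desaturase, had 339.8 and 332 CPM at 3 h, 352 and 352 at 6 h and 333 and 319 at 9 h in KO2, against 428 and 434 CPM at 3 h, 464 and 464 at 6 h and 458 and 456 at 9 h in KO1. The clones did not overlap in the drug. At 0 h the levels were 169.7 and 167 CPM in KO2, against 166 and 165 CPM in KO1. The difference was -0.42 ± 0.021 in the drug (adjusted p = 2.74e-19) and 0.026 ± 0.039 at 0 h (adjusted p = 0.763). Levels were higher in the drug than at 0 h in both clones. Hmgcs1, an early enzyme of the mevalonate pathway, had 40.5 and 38.2 CPM at 3 h, 41.1 and 40.3 at 6 h and 43.1 and 46.9 at 9 h in KO2, against 67.4 and 70.7 CPM at 3 h, 61.5 and 64.4 at 6 h and 55.1 and 56.97 at 9 h in KO1. KO2 lay below KO1 in every library (-0.58 ± 0.050, adjusted p = 6.07e-12). It was already lower in KO2 at 0 h (-0.34 ± 0.090, adjusted p = 0.00597) and belongs to the persisting class (drift 0.50 ± 0.090, adjusted p = 3.79e-05).

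Prtn3, proteinase 3 of neutrophil granules, was also not called at 0 h (17.3 and 18.9 CPM in KO2 at 0 h, against 19.4 and 16.3 in KO1). Under actinomycin D it had 14.2 and 18.9 CPM at 3 h, 13.9 and 16.1 at 6 h and 15.7 and 15.98 at 9 h in KO2, against 23.8 and 27.05 CPM at 3 h, 22.7 and 24.8 at 6 h and 19.4 and 20.9 at 9 h in KO1. It was lower in every KO2 library (-0.54 ± 0.070, adjusted p = 1.18e-07). Slc7a11, the cystine transporter, had 23.9 and 21.4 CPM at 3 h, 8.59 and 7.40 at 6 h and 9.22 and 11.4 at 9 h in KO2, against 33.5 and 31.01 CPM at 3 h, 12.5 and 10.4 at 6 h and 15.8 and 14.98 at 9 h in KO1. The fitted difference was -0.53 ± 0.070, adjusted p = 1.68e-07. Zfp608, a zinc finger gene, was lower as well (-0.42 ± 0.090, adjusted p = 0.000547, and 0.013 ± 0.084 at 0 h). It ranged from 6.50 to 9.85 CPM (median 7.96) in the 6 KO2 libraries, against 8.87 to 14.9 CPM (median 9.43) in the 6 KO1 libraries.

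**Figure D4:**
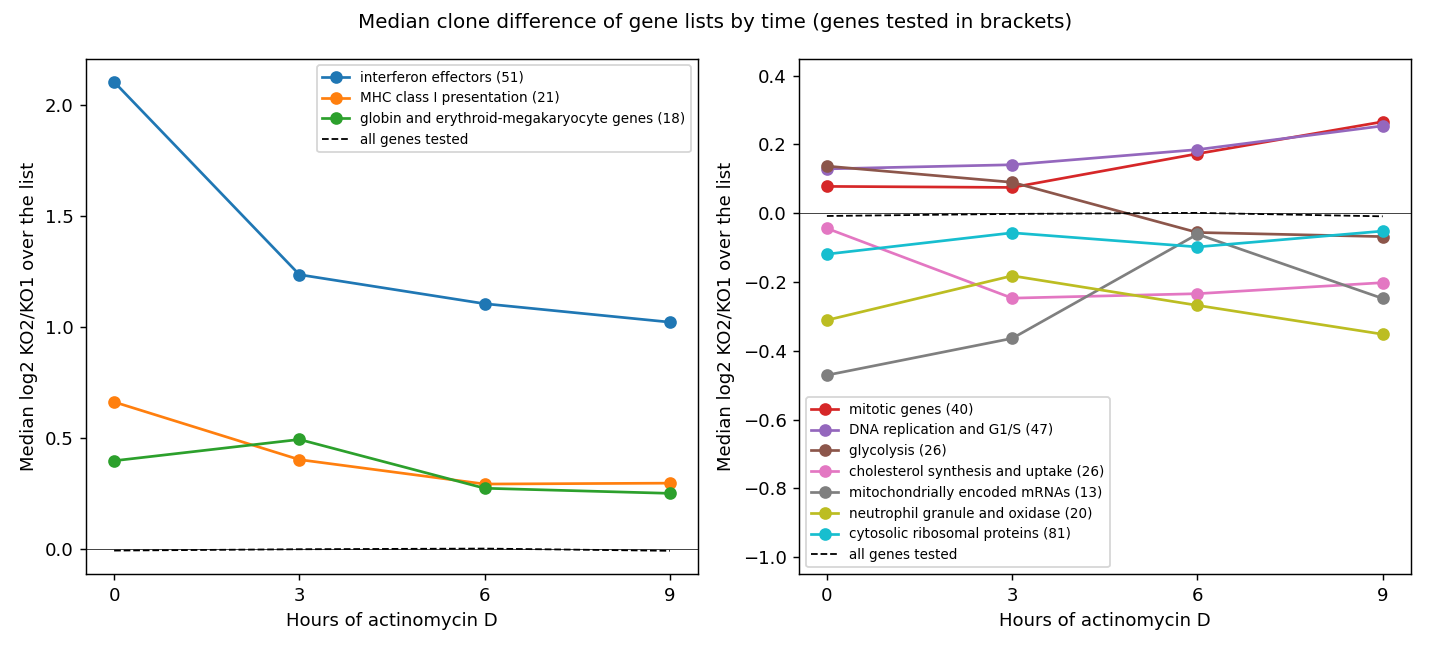
Lines join the median log2 difference KO2/KO1 over the tested members of each list (number in brackets) at 0, 3, 6 and 9 h, for 3 lists on the left and 7 on the right, with all genes dashed. Interferon effectors decline after 0 h, mitotic and replication genes are highest at 9 h, sterol genes are lower in KO2 in the drug, and glycolysis crosses 0 between 3 and 6 h.

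Vanished differences included short-lived regulatory mRNAs. Of 35 tested, 9 were higher and 3 lower in KO2 in the drug, against 8.62% and 10.6% of all genes. This balance moved with time. At the single times, 11 were higher and 0 lower at 3 h, 5 and 4 at 6 h, and 5 and 5 at 9 h. The drift between 3 and 9 h was called toward KO1 for 7 and toward KO2 for 2, against 1.88% and 1.07% of all genes. Without the 3 h libraries 6 were higher and 7 lower in the drug. At 0 h 7 were higher and 13 lower, against 5.8% and 6.83% of all genes. The change was called toward KO2 for 10 and toward KO1 for 2 (1.86% and 2.5% of all genes), and 10 were in the vanished class, against 2.01% of all genes. Il23a (chr10:128132008-128134621), the p19 subunit of interleukin-23 and not a member of the list, had 28.6 and 29.6 CPM in KO2 at 0 h, against 76.1 and 77.1 in KO1, a difference of -1.39 ± 0.099 (adjusted p = 1.02e-15). Its drug levels were 1.85 and 1.88 CPM at 3 h, 1.62 and 1.78 at 6 h and 1.98 and 1.37 at 9 h in KO2, against 1.94 and 2.54 CPM at 3 h, 1.86 and 1.92 at 6 h and 2.21 and 1.24 at 9 h in KO1. The clones overlapped there (-0.16 ± 0.18, adjusted p = 0.626), at levels far below those at 0 h in both clones. Fos, a subunit of AP-1, had 8.24 and 6.97 CPM in KO2 at 0 h, against 12.8 and 14.01 in KO1. In the drug it had 56.5 and 59.7 CPM at 3 h, 69.6 and 70.5 at 6 h and 64.3 and 71.2 at 9 h in KO2, against 62.7 and 64.4 CPM at 3 h, 64.6 and 67.1 at 6 h and 57.5 and 59.5 at 9 h in KO1. It was lower in KO2 at 0 h (-0.82 ± 0.14, adjusted p = 1.24e-05) and not called in the drug (0.062 ± 0.041, adjusted p = 0.331), although the difference drifted toward KO2 (drift 0.34 ± 0.085, adjusted p = 0.00702). Klf6, a zinc finger factor, differed less in the drug than at 0 h (-0.29 ± 0.032 in the drug, -0.74 ± 0.041 at 0 h, change 0.44 ± 0.050, adjusted p = 8.05e-09).

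The clone differences in glycolysis moved over the hours of the drug. Of 26 identifiers in the list (Aldoa is held by 2), 11 were higher in KO2 at 0 h and 0 lower, against 5.8% and 6.83% of all genes, with a median of 0.14. Over the drug as a whole, 1 was higher and 3 lower, not above or near the 8.62% and 10.6% of all genes. The vanished class held 8, against 2.01% of all genes, and the change was called toward KO1 for 9, against 2.5%. Tested alone, 11 were higher and 0 lower at 3 h, 1 and 10 at 6 h, and 1 and 11 at 9 h, with the drift between 3 and 9 h called toward KO1 for 11. The shares of all genes were 5.66% and 6.66% at 3 h, 5.68% and 7.89% at 6 h, and 5.01% and 7.58% at 9 h, with 1.88% for that drift. With TMM the medians at the 3 times were 0.09, -0.056 and -0.068. Pgk1, phosphoglycerate kinase, had 662 and 699.7 CPM in KO2 at 0 h, against 620.1 and 615 in KO1. During the drug it had 761 and 789 CPM at 3 h, 775 and 774 at 6 h and 602 and 608 at 9 h in KO2, against 798 and 782 CPM at 3 h, 824 and 833 at 6 h and 677 and 675 at 9 h in KO1. It was higher in KO2 at 0 h (0.14 ± 0.034, adjusted p = 0.003) and lower in the drug (-0.095 ± 0.021, adjusted p = 0.000693), with a drift of -0.13 ± 0.031 (adjusted p = 0.00254). Hk3, a hexokinase of myeloid cells, was lower in KO2 in the drug (-0.36 ± 0.072, adjusted p = 0.00026), and Pfkp, a phosphofructokinase, higher (0.12 ± 0.021, adjusted p = 8.49e-05).

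Of 24 other genes of the response to hypoxia, 5 were in the vanished class, against 2.01% of all genes. In the drug 3 were higher and 2 lower in KO2, near the 8.62% and 10.6% of all genes, and 0 were higher with replicate pairs summed or without the 3 h libraries. Bnip3l, a mitophagy receptor, and Jmjd6, a hydroxylase, were the largest of the 3 higher (0.10 ± 0.025 and 0.095 ± 0.034, adjusted p = 0.00286 and 0.0447). Ankrd37, a target of HIF factors, had 1.997 and 1.68 CPM in KO2 at 0 h, against 0.728 and 0.626 in KO1 (1.44 ± 0.36, adjusted p = 0.00432). Over the drug hours it had 9.78 and 10.1 CPM at 3 h, 24.6 and 25.9 at 6 h and 33.4 and 33.1 at 9 h in KO2, against 8.29 and 7.67 CPM at 3 h, 31.1 and 30.9 at 6 h and 37.7 and 36.3 at 9 h in KO1. The fitted difference was -0.12 ± 0.064, adjusted p = 0.192. Hif1a itself was lower in KO2 in both phases (-0.16 ± 0.027 in the drug, adjusted p = 1.98e-05), as was Ero1l, an oxidase of the endoplasmic reticulum (-0.13 ± 0.028, adjusted p = 0.000514).

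Lars2, the mitochondrial leucyl-tRNA synthetase, moved in an irregular way. It had 377 and 374 CPM in KO2 at 0 h, against 109 and 108 in KO1. Under actinomycin D it had 121 and 126 CPM at 3 h, 101.1 and 95.3 at 6 h and 187 and 175 at 9 h in KO2, against 361 and 371 CPM at 3 h, 88.5 and 82.4 at 6 h and 115 and 115 at 9 h in KO1. High values stood in KO2 at 0 h and in KO1 at 3 h, and the difference was 1.79 ± 0.25 at 0 h (adjusted p = 4.31e-07) and -0.28 ± 0.17 in the drug (adjusted p = 0.272). An identifier with no name in the tables used, ENSMUSG00000119584 at chr17:40157244-40159092, had its high values in the same libraries. This identifier was taken as an rRNA-like locus when library composition was described, although its sequence was not checked. It had 11069 and 10850 CPM at 0 h and 1533 to 3283 CPM in the drug in KO2, against 1454 and 1466 CPM at 0 h, 7216 CPM in both libraries at 3 h and 1047 to 1402 CPM at 6 and 9 h in KO1. Its part in the Lars2 result was not tested.

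Other vanished differences were spread over unrelated genes. Hist1h4d had 3.43 and 3.11 CPM in KO2 at 0 h, against 0.794 and 0.25 in KO1, with -0.23 ± 0.12 in the drug (adjusted p = 0.208). Trim6, a ubiquitin ligase of the antiviral response, was higher in KO2 at 0 h (1.03 ± 0.19, adjusted p = 7.22e-05). In the drug it ranged from 14.6 to 30.5 CPM (median 25.7) in the 6 KO2 libraries, against 14.5 to 30.7 CPM (median 22.96) in the 6 KO1 libraries. Adnp, a chromatin protein, was higher at 0 h (adjusted p = 0.000379), with 10.5 and 8.40 CPM in KO2 at 0 h, against 3.97 and 5.44 in KO1. In the drug it ranged from 1.81 to 2.56 CPM (median 2.23) in the 6 KO2 libraries, against 1.53 to 3.23 CPM (median 2.49) in the 6 KO1 libraries. Des, the muscle intermediate filament desmin, had 0.312 and 0.249 CPM in KO2 at 0 h, against 0.992 and 1.13 in KO1. Its drug levels were 3.76 and 3.999 CPM at 3 h, 12.8 and 14.96 at 6 h and 23.7 and 24.8 at 9 h in KO2, against 5.37 and 5.88 CPM at 3 h, 17.6 and 16.6 at 6 h and 23.1 and 24.4 at 9 h in KO1. Its difference was called at 0 h (-1.89 ± 0.49, adjusted p = 0.00582) and not in the drug (adjusted p = 0.0938). Dcst2 and Tmem151a were lower in KO2 at 0 h in the same way (-1.45 ± 0.35 and -0.99 ± 0.18), with 0.069 ± 0.097 and -0.089 ± 0.043 in the drug (adjusted p = 0.695 and 0.154).

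Among the 37 genes with opposite calls, Cebpb, a transcription factor of myeloid and stress responses, had 31.8 and 29.3 CPM in KO2 at 0 h, against 20.2 and 19.1 in KO1. In the drug it had 10.9 and 9.56 CPM at 3 h, 12.3 and 10.4 at 6 h and 11.6 and 9.03 at 9 h in KO2, against 14.7 and 12.3 CPM at 3 h, 19.8 and 21.2 at 6 h and 11.1 and 9.72 at 9 h in KO1. It was higher in KO2 at 0 h (0.64 ± 0.14, adjusted p = 0.000567) and lower in the drug (-0.45 ± 0.096, adjusted p = 0.000503), with separate pairs at 3 and 6 h and overlap at 9 h. Fdps, farnesyl diphosphate synthase, had 1.12 and 1.06 CPM in KO2 at 0 h, against 0.463 and 0.375 in KO1. During the drug it had 5.95 and 5.06 CPM at 3 h, 7.86 and 7.79 at 6 h and 6.09 and 8.32 at 9 h in KO2, against 7.12 and 8.29 CPM at 3 h, 9.84 and 8.62 at 6 h and 9.02 and 9.21 at 9 h in KO1. The differences were -0.35 ± 0.092 in the drug and 1.37 ± 0.44 at 0 h (adjusted p = 0.00565 and 0.0285). Hist1h4n changed sign in the same direction (-0.41 ± 0.10 in the drug and 1.28 ± 0.43 at 0 h, adjusted p = 0.00343 and 0.0375). Wsb1, a substrate receptor of a ubiquitin ligase, had 346 and 346 CPM in KO2 at 0 h, against 424 and 422 in KO1. Over the drug hours it had 266 and 272 CPM at 3 h, 396 and 379 at 6 h and 489.7 and 481 at 9 h in KO2, against 231 and 238 CPM at 3 h, 373 and 375 at 6 h and 474 and 469 at 9 h in KO1. It was slightly higher in KO2 in the drug (0.095 ± 0.023, adjusted p = 0.00188) and lower at 0 h (-0.29 ± 0.037, adjusted p = 3.82e-08). Arglu1, a splicing-related protein, went the same way (0.14 ± 0.025 in the drug and -0.23 ± 0.039 at 0 h, adjusted p = 2.6e-05 and 2.32e-05), as did Thop1, a peptidase (0.15 ± 0.043 in the drug and -0.23 ± 0.075 at 0 h, adjusted p = 0.00975 and 0.0349).

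The clone difference itself drifted between 3 and 9 h for 461 genes (2.94%), 167 toward KO2 and 294 toward KO1. Plac8, a small protein of myeloid and interferon-treated cells, had 247 and 254 CPM at 3 h, 163 and 162 at 6 h and 107 and 112 at 9 h in KO2, against 37.8 and 36.02 CPM at 3 h, 34.1 and 34.1 at 6 h and 35.2 and 36.3 at 9 h in KO1. It was higher in KO2 throughout (2.23 ± 0.080, adjusted p = 5.72e-24), with KO2 levels at 9 h below those at 3 h and KO1 levels even (drift -1.15 ± 0.075, adjusted p = 1.68e-27). Enox2, a surface oxidase, had 7.25 and 9.25 CPM at 3 h, 1.73 and 1.89 at 6 h and 1.37 and 1.53 at 9 h in KO2, against 8.87 and 8.79 CPM at 3 h, 2.28 and 1.86 at 6 h and 0.407 and 0.509 at 9 h in KO1. The clones were close at 3 and 6 h and KO2 was higher at 9 h (drift 1.74 ± 0.42, adjusted p = 0.00457). The pseudogene Rpl34-ps1, which may share reads with Rpl34 and its copies, drifted the other way (-1.12 ± 0.30, adjusted p = 0.0141). Lars2 drifted by 2.23 ± 0.051 (adjusted p = 4.17e-75).

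Calls in the translation and respiration machinery were mostly lower in KO2. Of 81 cytosolic ribosomal protein genes, 48 were lower in KO2 in the drug and 2 higher, against 10.6% and 8.62% of all genes. The median was -0.066. At 0 h 50 were lower and 0 higher, against 6.83% and 5.8% of all genes, with a median of -0.12. With the 2 libraries of each group summed, 24 were lower and 0 higher in the drug, and without the 6 h libraries 32 were lower and 6 higher. With TMM, DESeq2 size factors or spike-in totals the median in the drug lay 0.062 to 0.065 below that of all genes, a distance that scaling leaves nearly fixed. Rpl22l1, a paralogue of Rpl22, ranged from 60.1 to 83.5 CPM (median 79.3) in the 6 KO2 libraries, against 66.1 to 109 CPM (median 97.2) in the 6 KO1 libraries. It differed by -0.27 ± 0.036 (adjusted p = 2.36e-07). Rpl26 was lower (-0.20 ± 0.049, adjusted p = 0.0029). Rpl35 and Rpl19 were the 2 higher members (0.071 ± 0.023 and 0.067 ± 0.021, adjusted p = 0.0241 and 0.0204). Ribosomal protein genes have many processed copies that can share reads.

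Of 13 mRNAs encoded in the mitochondrial genome, 11 were lower in KO2 in the drug and 0 higher, against 10.6% and 8.62% of all genes, with a median of -0.27. At 0 h 6 were lower and 0 higher, against 6.83% and 5.8% of all genes, with a median of -0.47. With DESeq2, or without the 9 h libraries, 7 were lower in the drug. With spike-in totals the median lay 0.29 below that of all genes. The median was -0.36 at 3 h, -0.061 at 6 h and -0.25 at 9 h. mt-Cytb, chosen after its values were seen as an abundant member, averaged 2942 CPM in KO2 and 3508 CPM in KO1 in the drug (-0.25, adjusted p = 2.02e-14). The largest called differences were in mt-Co2 (-0.73 ± 0.16, adjusted p = 0.000838) and mt-Nd4l (-0.73 ± 0.23, adjusted p = 0.0224), which had low levels and overlap between the clones. Of 74 nuclear genes of the respiratory chain, 22 were lower and 3 higher, with a median of -0.058, against 10.6% and 8.62% of all genes. The counts were 8 lower and 1 higher with replicate pairs summed, and 13 and 3 without the 6 h libraries. Atp5g1, a subunit of the ATP synthase, was -0.22 ± 0.020 (adjusted p = 4.37e-11) and Atp5c1 -0.16 ± 0.030 (adjusted p = 7.97e-05). Cox8a (0.11 ± 0.020) and Ndufb8 (0.10 ± 0.027) were the largest of the 3 higher (adjusted p = 8.49e-05 and 0.00624).

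Of 56 ribosome assembly factors, 5 were higher and 4 lower in the drug, against 8.62% and 10.6% of all genes. At 0 h 1 was higher and 12 lower, against 5.8% and 6.83% of all genes. Higher members in the drug numbered 9 with the differences averaged over times and 3 without the 3 h libraries. The change was called toward KO2 for 9 and toward KO1 for 0, against 1.86% and 2.5% of all genes. Rrp12 had 99.1 and 101.2 CPM at 3 h, 74.7 and 68.3 at 6 h and 46.7 and 49.5 at 9 h in KO2, against 81.6 and 79.9 CPM at 3 h, 59.9 and 60.3 at 6 h and 46.7 and 43.01 at 9 h in KO1. The difference was 0.23 ± 0.036 (adjusted p = 7.02e-06), with a change of 0.29 ± 0.064 (adjusted p = 0.00197). Nolc1 was higher in the drug (0.16 ± 0.025, adjusted p = 3.86e-06). Npm1, nucleophosmin, and Utp4 were lower (-0.16 ± 0.021 and -0.17 ± 0.029, adjusted p = 1.84e-07 and 2.23e-05).

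mRNAs for folding in the endoplasmic reticulum held calls on the lower side in both phases, with 12 of 24 chaperones lower in KO2 and 0 higher in each, against 10.6% of all genes lower in the drug and 6.83% at 0 h. With replicate pairs summed 7 were lower in the drug. Hspa5, the chaperone BiP, had 1266 and 1249 CPM in KO2 at 0 h, against 1855 and 1850.4 in KO1. Under actinomycin D it had 1809 and 1829 CPM at 3 h, 1092 and 1067 at 6 h and 789.6 and 792 at 9 h in KO2, against 1950.1 and 1995 CPM at 3 h, 1287 and 1286 at 6 h and 886 and 896 at 9 h in KO1. The difference was smaller in the drug (-0.18 ± 0.020, adjusted p = 4.65e-09) than at 0 h (-0.56 ± 0.032, change adjusted p = 1.92e-10). Pdia4, a disulfide isomerase, was -0.22 ± 0.028 (adjusted p = 1.19e-07). Of 31 genes of the integrated stress response, 11 were lower and 4 higher in the drug, against 10.6% and 8.62% of all genes, and 5 and 0 with replicate pairs summed. Atf3, an ATF4 target, reached at most 0.222 CPM in KO2 and 0.791 CPM in KO1 in the drug, and Mthfd2, a mitochondrial folate enzyme, was 0.10 ± 0.034 (adjusted p = 0.0247).

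Of 46 histone names in the list, 12 matched a gene name here and 11 were tested. The libraries were made from poly-A RNA, so histone transcripts with no poly-A tail may be missed. Of the 11 tested genes, 5 were lower in KO2 in the drug and 1 higher, against 10.6% and 8.62% of all genes. Without the 6 h libraries 3 were lower. The higher one was H1f0 (0.14 ± 0.032, adjusted p = 0.000956), a linker histone whose expression does not depend on replication. Hist1h2bc ranged from 4.72 to 15.5 CPM (median 7.07) in the 6 KO2 libraries, against 7.74 to 18.9 CPM (median 11.3) in the 6 KO1 libraries. It differed by -0.57 ± 0.086 (adjusted p = 2.49e-06). Hist1h1b was lower too (-0.51 ± 0.18, adjusted p = 0.042). These near-identical genes may share reads.

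Lists tied to growth factor signalling and to cell death held calls in both directions. Of 30 genes of the IL-3 receptor, STAT5 and their targets, 7 were higher and 4 lower, against 8.62% and 10.6% of all genes. Without the 3 h or the 6 h libraries 3 and 4 were higher. Egr1, an immediate early factor, had 5.33 and 5.87 CPM at 3 h, 14.8 and 10.96 at 6 h and 9.66 and 11.2 at 9 h in KO2, against 4.66 and 4.21 CPM at 3 h, 8.40 and 8.50 at 6 h and 6.75 and 6.56 at 9 h in KO1. The fitted difference was 0.56 ± 0.093, adjusted p = 1.57e-05. Socs1, an inhibitor of cytokine and interferon signalling, was higher in KO2 in both phases (0.23 ± 0.070 in the drug, adjusted p = 0.0151). Of the receptor chains, Il3ra was higher (0.10 ± 0.036, adjusted p = 0.0426), while Csf2rb and Csf2rb2, which are near-identical in parts, were lower (-0.14 ± 0.025 and -0.11 ± 0.021, adjusted p = 3.6e-05 and 0.000163). Of 30 p53 targets, 4 were higher and 4 lower (8.62% and 10.6% of all genes). Trp53inp1 and Zmat3 were lower (-0.16 ± 0.021 and -0.14 ± 0.020, adjusted p = 2.15e-07 and 5.83e-07), and Sesn2, also in the stress list, was higher (0.10 ± 0.024, adjusted p = 0.00133). Of 20 regulators of the BCL2 family, 3 were higher, and 0 without the 3 h libraries, among them Bid (0.15 ± 0.041, adjusted p = 0.00657) and Bcl2l1 (0.13 ± 0.029, adjusted p = 0.000978). Another 3 were lower, with Bcl2a1a at -0.31 ± 0.051 and its near-identical copy Bcl2a1b at -0.39 ± 0.11 (adjusted p = 1.16e-05 and 0.00773). The shares of all genes were 8.62% higher and 10.6% lower.

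Of 59 genes of mRNA decay, the machinery that removes transcripts in the drug, 3 were higher and 9 lower in KO2, against 8.62% and 10.6% of all genes, with a median of -0.003. Zc3h12a, an endonuclease, and Exosc8 were higher (0.17 ± 0.036 and 0.096 ± 0.025, adjusted p = 0.000471 and 0.00507). Cnot7, a deadenylase, and Exosc9, of the exosome, were lower (-0.21 ± 0.028 and -0.28 ± 0.053, adjusted p = 2.03e-07 and 0.000121). Of 8 tested mast cell and basophil genes, 2 were higher, Cma1 (0.62 ± 0.20, adjusted p = 0.025) and Gata2 (0.076 ± 0.027, adjusted p = 0.0432), and 1 lower, Fcer1g (-0.085 ± 0.023, adjusted p = 0.00736). Of 4 stromal markers, 1 was lower, Vim (-0.17 ± 0.021, adjusted p = 3.29e-08), and of 6 lymphoid markers 1 was higher, Igll1 (0.52 ± 0.18, adjusted p = 0.0404), at up to 4.35 CPM. Of 19 blood progenitor factors, 4 were higher and 3 lower, against 8.62% and 10.6% of all genes. The same shares of all genes hold for the mast cell, stromal and lymphoid counts, which rest on few tested genes.

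The share of calls differed between chromosomes, given here as a description. Among genes that averaged 5 CPM or more, 27.8% of the 575 on chromosome 8 were lower in KO2 in the drug and 5.74% higher, with a median of -0.062. On chromosome 19, 25.1% of 378 were higher and 7.41% lower, with a median of 0.045. The medians at 0 h were -0.073 and 0.039. The other nuclear chromosomes had medians between -0.037 (X) and 0.016 (chromosome 5) in the drug, and 12 of the 15 mitochondrial genes were lower. Among the genes above, Nolc1, Rrp12, Scd2, Cox8a, Ndufb8 and Tmem151a lie on chromosome 19, and Utp4, Cnot7, Calr, Arglu1 and Ankrd37 on chromosome 8. The cause of these shifts was not tested.

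**Figure D5:**
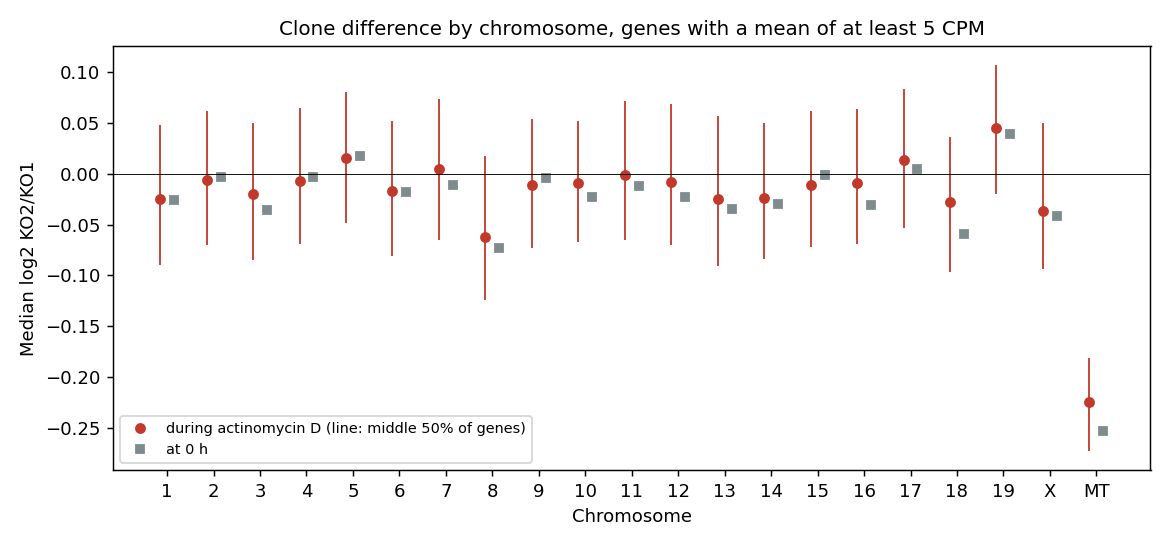
Circles give the median log2 difference KO2/KO1 of genes averaging 5 CPM or more on each chromosome over 3 to 9 h of actinomycin D, with lines over the middle 50% of genes, and squares give the median at 0 h. Chromosome 8 lies lowest and chromosome 19 highest among the nuclear chromosomes in the drug, and the mitochondrial genome (MT) lies at -0.23.

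Some calls rested on single libraries. When 1 of the libraries was left out, for at least 1 choice of library, the drug call was lost for Jak1, Mpo, Igll1, Il3ra, Csf3r, Cma1, Gata2, Socs1, Bcl2a1b, Atf3, Rpl35, Rpl19, mt-Nd4l, Bub3, Hist1h1b, Jmjd6 and Mthfd2, and the call at 0 h for Csn1s1, Ankrd37, Des, Dcst2, Thop1, Fdps and Hist1h4n. The call of the change was lost in this way for Mx1, Mx2, Kif14, Mtss1, Col2a1, Ttk, Prtn3, Tmem173, Zfp608, Ankrd37, Trim6, Adnp, Des, Dcst2, Tmem151a, Thop1, Fdps and Hist1h4n, and that of the drift for Enox2 and Rpl34-ps1. The other calls that were refitted kept their side in each of these fits. For genes named only through a list, the drug call alone was refitted. The drift was refitted only for genes named for their drift. Calls of change or drift given for other genes, such as Usp18, Irf7 and Hspa5, were not checked in this way.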

How the data were processed

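Poly-A RNA of 32D cells was sequenced with a directional kit after ERCC spike-ins had been added, per the labels' protocols. The authors deposited raw counts of read pairs for each gene, made with featureCounts 1.6.3 without strand on Ensembl release 105 joined to the ERCC sequences, per the file headers. The submitters' processing notes name STAR, DESeq2 and GRCm39, with the versions not given in the sources used here. Each table held 55414 gene identifiers, of which 52081 had a name, and 92 spike-ins, which were removed before scaling.

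KO2 was compared with KO1 by edgeR 4.0.16 (R 4.3.3), with its quasi-likelihood test, TMM scaling and Benjamini-Hochberg adjustment over the 15656 genes that passed filterByExpr at a minimum count of 10 over the 16 KO2 and KO1 libraries. A call is an adjusted p under 0.05. The drug comparison used 12 libraries with time as a factor. The difference at 0 h and its change came from 1 fit of 16 libraries, and the drift and the single times from a fit in which each clone had its own term at each time. The biological coefficient of variation was 0.0378, 0.0348 and 0.0219 in these fits. The fits were tested on simulated data. All libraries had 15361601 to 17257226 gene counts, and the counts of replicate pairs differed by more than sampling noise, with a chi-square of 1.43 to 2.309 per degree of freedom. Intervals and floors cover counting error only.

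The members and the gene lists were chosen with earlier results of these data known. Named genes, each with at least 5 CPM in 1 clone and phase, were Nat10, the 8 largest persisting differences each way, the 5 largest each way that appeared or vanished, the 3 largest each way with opposite calls or drift, and up to 2 called members each way from every list, with no minimum. Alternatives were DESeq2 1.42.0 and its size factors, spike-in totals, other filters, other designs, a replicate block, summed replicates, and fits without each time or library.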

Additional observations from a re-analysis of the deposited data

Results flagged for a closer look

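A clone difference that itself differed between 2 phases or 2 times, by the edgeR test of that difference, was singled out for each named gene. Over all genes the change of the difference between the drug and 0 h was called for 682 genes (4.36%), and its drift between 3 and 9 h for 461 genes (2.94%). Values in brackets are log2 differences, the drug minus 0 h or 9 h minus 3 h of KO2 over KO1. A negative value means that KO2 moved down relative to KO1.

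The clone difference moved toward KO1 in the drug for interferon genes: Mx1 (-1.89), Mx2 (-1.19), Usp18 (-1.64), Irf7 (-1.35), Plac8 (-1.10) and Tmem173 (-0.77). The antigen presentation genes H2-T24 (-1.47), H2-K1 (-0.50) and Tap1 (-0.63) moved the same way. Among the largest such moves elsewhere were Hist1h4d (-2.89), Lars2 (-2.08), Fdps (-1.71), Hist1h4n (-1.69), Ankrd37 (-1.56), Adnp (-1.13) and Cebpb (-1.09). Smaller ones were found for Trim6 (-0.96), Prtn3 (-0.56), Slc7a11 (-0.47), Scd2 (-0.44), Zfp608 (-0.44), Tfrc (-0.37), Pgk1 (-0.23), Csf2rb (-0.20) and Gata2 (-0.17).

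The difference moved toward KO2 for the cell division genes Spc24 (0.66), Kif14 (0.49), Ttk (0.40) and Ndc80 (0.33). It moved the same way for Des (1.71), Dcst2 (1.52), Col2a1 (1.28), Il23a (1.24), Tmem151a (0.90), Fos (0.88), Mtss1 (0.55) and Klf6 (0.44). In the endoplasmic reticulum, in ribosome assembly and among the genes with opposite calls, the moves toward KO2 were smaller, for Wsb1 (0.38), Hspa5 (0.38), Thop1 (0.38), Arglu1 (0.37), Rrp12 (0.29), H1f0 (0.23) and Ero1l (0.15).

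Between 3 and 9 h the difference drifted toward KO2 for Fcgr2b (4.43), Lars2 (2.23) and Enox2 (1.74), and toward KO1 for Mx1 (-1.31), Plac8 (-1.15) and Rpl34-ps1 (-1.12). The causes of these moves were not tested.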

How the results depend on the processing

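Scaling was the choice that turned directions. With spike-in totals in place of TMM, 15038 genes were called in the drug, 6559 at 0 h, 10870 for the change and 10629 for the drift, and 6413 persisted, 5158 appeared, 37 vanished and 91 had opposite calls. The share of these calls that were higher in KO2 was 0.313% in the drug, 2.64% at 0 h, 0.23% for the change and 0.245% for the drift, against 44.9%, 45.9%, 42.7% and 36.2% with TMM. Of the named values, 121 kept their direction and call, 12 lost the call and 45 turned negative. In the drug these were Kif14 -0.68, Mtss1 -0.67, Spc24 -0.80, Col2a1 -0.90, Ttk -0.84, Wsb1 -1.16, Thop1 -1.11, Arglu1 -1.12, Ltf -0.77, Mpo -0.69, Igll1 -0.79, Il3ra -1.16, Cma1 -0.82, Gata2 -1.18, Gfi1b -0.76, Mecom -1.07, Egr1 -0.73, Socs1 -1.02, Tap1 -1.07, Sesn2 -1.16, Bid -1.11, Bcl2l1 -1.13, Rpl35 -1.19, Rpl19 -1.19, Cox8a -1.15, Ndufb8 -1.16, Rrp12 -1.03, Nolc1 -1.10, Zc3h12a -1.09, Exosc8 -1.16, Ccne1 -0.81, Prim1 -0.93, Ndc80 -0.91, H1f0 -1.12, Pfkp -1.14, Bnip3l -1.16, Jmjd6 -1.17 and Mthfd2 -1.15. For the change they were Kif14 -0.35, Mtss1 -0.16, Spc24 -0.14, Ttk -0.42, Wsb1 -0.41, Thop1 -0.42 and Arglu1 -0.42. None of these changes was called on that scale (edgeR adjusted p from 0.0604 to 0.595). The causes were not tested.

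Named values kept direction and call with DESeq2 size factors (177, with 1 lost), DESeq2's test (155, with 16 lost), no filter on low counts (166, with 12 lost), a mean of 5 CPM or more (143, with 0 lost) and a filter over the drug libraries (110, with 0 lost). The drift counts were 265 with DESeq2 and 307 with no filter. With no filter 31.4% of the calls of change and 53.1% of those of drift were toward KO2. With 1 coefficient for each clone and time, 1228 genes had a called change, 237 appeared, 581 vanished and 57 had opposite calls. Averaging that fit over the drug times gave 68 with opposite calls. With the pair of libraries of each group summed, 1899 genes were called in the drug, 958 at 0 h and 256 for the change (23.4% toward KO2), and 563 persisted, 28 appeared, 100 vanished and 9 had opposite calls, with 31 named calls lost and 141 kept. No drift can be tested on sums.

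Leaving out each library in turn gave 2587 to 2944 genes called in the drug, 1186 to 2099 genes called at 0 h, 361 to 724 genes with a called change, 280 to 531 genes with a called drift, 740 to 1058 genes that persisted, 49 to 136 genes that appeared, 147 to 340 genes that vanished and 15 to 42 genes with opposite calls. Single libraries moved some of these counts by more than 1.5 times. Genes called at 0 h numbered 1215 without KO2 0 h replicate 2, 1237 without KO1 0 h replicate 1 and 1186 without KO1 0 h replicate 2. Genes with a called change numbered 404 without KO2 0 h replicate 1, 427 without KO2 0 h replicate 2, 389 without KO1 0 h replicate 1 and 361 without KO1 0 h replicate 2. Genes with a called drift numbered 286 without KO1 3 h replicate 1, 289 without KO1 3 h replicate 2, 280 without KO1 9 h replicate 1 and 286 without KO1 9 h replicate 2. Genes that appeared numbered 66 without KO2 0 h replicate 1, 88 without KO2 0 h replicate 2, 63 without KO1 0 h replicate 1 and 49 without KO1 0 h replicate 2. Genes that vanished numbered 177 without KO2 0 h replicate 1, 165 without KO2 0 h replicate 2, 162 without KO1 0 h replicate 1 and 147 without KO1 0 h replicate 2. Genes with opposite calls numbered 15 without KO2 0 h replicate 1, 19 without KO2 0 h replicate 2, 20 without KO1 0 h replicate 1 and 19 without KO1 0 h replicate 2. Of named values, 2232 kept their call and 176 lost it over all these fits. Without the 3 h, 6 h or 9 h libraries, 23, 17 and 25 named calls were lost.

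Replicate numbers are shared by the groups, but did not pair the libraries: the correlation of deviations between KO2 and KO1 of the same number was 0.028 at 0 h, 0.018 at 3 h, -0.016 at 6 h and -0.005 at 9 h. With a replicate block, 2938 genes were called in the drug, 1951 at 0 h, 651 for the change and 518 for the drift, and 1024 persisted, 118 appeared, 303 vanished and 37 had opposite calls, with 4 named calls lost. The highest correlation over all pairs of groups was 0.153. With 2 libraries a group, small differences in mRNAs of a few counts may not be detectable at this depth.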
